A study of Macaca mulatta with 30 samples.

Results

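RNA of an immortalized rhesus macaque fibroblast line and of testis was compared jointly with RNA of cerebral cortex, pancreas and thymus. A gene was placed above the other tissues when its lower mean of fibroblast and testis exceeded its highest mean of the other 3 tissues, and below them when its higher mean of the pair lay under their lowest mean. Of 14133 genes measured, 1345 had the first order by their means alone and 1103 the second. The order was called when each of the 6 contrasts between a tissue of the pair and one of the others passed a limma adjusted p under 0.05, which left 824 genes above (5.83% of all genes) and 241 below (1.71%). The size of the order is given as the gap, the log2 difference between the nearer tissue of the pair and the nearest of the other 3, so that a gap of 1 is a doubling of the signal. Called genes stood apart by a median gap of 0.46 above (0.14 to 2.90) and 0.28 below (0.14 to 1.42). A gap of at least 1 was reached by 137 genes above (0.969%) and by 8 below (0.0566%).

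The series held 30 arrays, 6 from each of the 5 sources, all from Macaca mulatta, with no treatment and no strain or genotype difference given. Each center (Oregon, Nebraska and Yerkes) labeled 2 aliquots of each RNA. Ages were not given, the fibroblasts were 1 line, and each tissue was a single RNA, so that the p-values reflect how far repeated labelings and hybridizations vary, and nothing about variation among animals. The fibroblast RNA came from Nebraska, the cortex RNA from Yerkes and the other RNAs from Oregon, so that for fibroblast and for cortex the source center and the tissue cannot be told apart, while testis, pancreas and thymus shared theirs. Mean log2 signal was 6.32 to 6.38 on the arrays of Oregon and Nebraska and 6.90 to 6.93 on those of Yerkes, and center was a term of the models behind every call given here, unless stated. The pancreas arrays stood apart, with a mean of 9.16 to 9.66 over 5 genes used by every cell against 10.93 to 11.93 on the arrays of the other tissues. At each center their median signal was above that of every other array. The part of this in the calls was not tested.

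Fibroblasts build and remodel the interstitial matrix. They secrete collagens, small proteoglycans and microfibril proteins, process procollagen with dedicated enzymes, and pull on the matrix through actin, myosin and integrins. A testis holds germ cells and Sertoli cells within tubules whose wall is made of flattened, contractile, collagen-producing peritubular cells, with Leydig cells, vessels and fibroblasts between the tubules. Cortex, exocrine pancreas and thymus are mainly neurons and glia, acinar cells, and thymocytes, and each holds some stroma as well.

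Both labels of the pair were checked against marker genes. Of 9 measured genes of cultured fibroblasts, 8 were highest in fibroblast, and their mean log2 signal was 11.10 to 11.68 over the 6 fibroblast arrays and 5.57 to 6.29 over the testis arrays. The matrix protease MMP3 was at 13.88 ± 0.31 (SD, n = 6 arrays) in fibroblast and 4.36 ± 0.38 in testis. All 8 genes of Sertoli and Leydig cells were highest in testis, at a list mean of 8.96 to 9.55 against 5.72 to 6.32 in fibroblast, and AMH, the Sertoli cell hormone, was at 12.28 ± 0.48 and 6.49 ± 0.29. Of 6 sperm and spermatid genes 1 was highest in testis (ZPBP, 7.72 ± 0.16) and 5 in pancreas. The protamine PRM1 stood at 6.35 ± 0.45 in testis against 6.34 for the median probeset of the array. These genes were listed as marks of 1 tissue of the pair, and none of the 23 was called above in both (5.83% of all genes were).

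**Figure D1:**
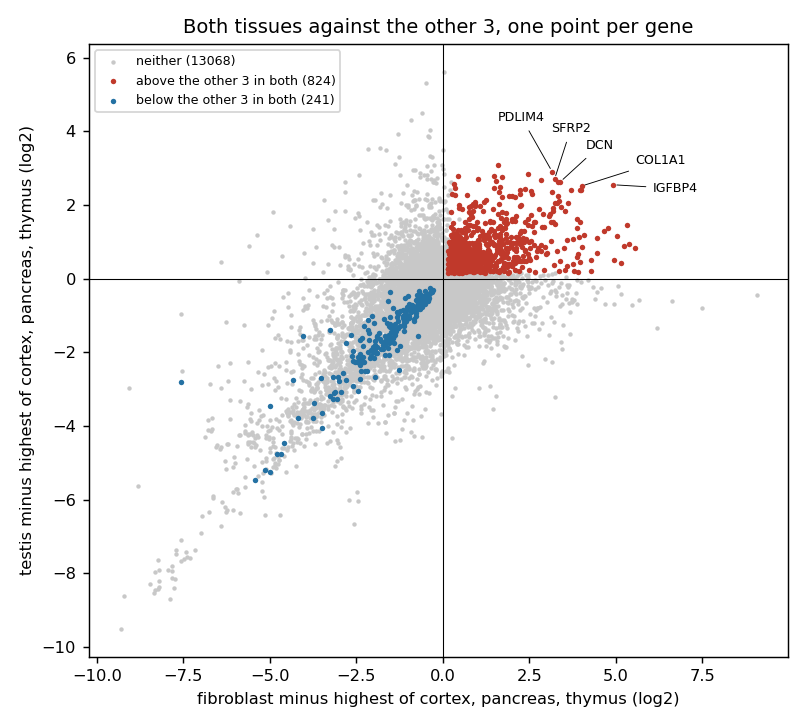
Log2 difference of fibroblast (x axis) and of testis (y axis) from the highest of the other 3 tissues, 1 point per gene. The 824 genes called above fill the upper right and lie at smaller values for testis than for fibroblast in 568 cases, and the 241 called below lie on the lower left among genes that differ from the highest tissue but not from the lowest.

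The genes with the largest gaps above included those of the extracellular matrix, the contractile apparatus, and of secreted or membrane proteins that bind growth factors. The 25 largest gaps ran from 1.97 (SE 0.07) for the adhesion protein KIRREL1 (1.13 when averaged) to 2.90 (SE 0.10) for PDLIM4, a fold of 3.92 to 7.48, with limma adjusted p from 1.60e-25 to 7.23e-16. Each of the 25 had its 4 arrays of the pair above the other 6 arrays at all 3 centers. That separation was found in 660 of all genes (4.67%), and it came from the same arrays as the choice. In bulk RNA, more cells of a type and more RNA per cell cannot be told apart. The next tissue was pancreas for 15 of the 25, cortex for 5 and thymus for 5, and fibroblast was higher than testis for 19. Of the 25 genes, 21 had more than 1 probeset, and for 15 of them the gap fell by more than 1.5 times when all probesets of the gene were averaged (the averaged gap is given with each of these genes).

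PDLIM4 is a PDZ and LIM domain protein that binds actinin on actin fibers. Its log2 signal had a lowest, median and highest value of 9.13, 10.005 and 10.13 on the 6 fibroblast arrays, and of 8.99, 9.66 and 9.81 on the testis arrays. No array of cortex, pancreas or thymus exceeded 7.07. The fibroblast and testis arrays overlapped each other and were far from the rest, with a gap of 2.56 at Oregon, 3.27 at Nebraska and 2.75 at Yerkes. A second probeset of the gene was dimmer and had a gap of 0.17, and the averaged gap was 1.66.

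SFRP2 and SFRP1 code for secreted proteins that bind Wnt ligands outside the cell. SFRP2 had a lowest, median and highest signal of 9.02, 9.26 and 9.49 in fibroblast and of 8.52, 8.73 and 8.92 in testis, and thymus, the next tissue, ended at 6.30. Fibroblast lay above testis without overlap, and the gap was 2.70 (SE 0.08). SFRP1 had the same order with more distance inside the pair, at 11.16, 11.60 and 11.77 in fibroblast and 9.54, 9.93 and 10.23 in testis. Its gap to cortex was 2.40 (SE 0.07), and both of its other probesets were called, at 2.65 and 1.18.

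Most of the matrix genes examined were shared by the pair. Members of this and the following lists were chosen with earlier results of these data known, so their shares are descriptions. Of 23 measured genes of interstitial and basement membrane matrix, 15 were called above (65.2%, against 5.83% of all genes), 7 of them by at least 1, and none below. Between all 12 and all 18 arrays, 21 of the 23 were higher, against 24.7% of all genes, and their median difference was 1.80 against 0.02 for all genes. DCN, a small proteoglycan that binds collagen fibrils, had a lowest, median and highest signal of 13.09, 13.78 and 14.03 in fibroblast and of 12.63, 12.7 and 13.27 in testis. Pancreas was next for DCN, at 10.03 to 10.40, and cortex was lowest, at 7.70 to 8.32. The gap was 2.63 (SE 0.09), and 3 of the 4 other DCN probesets were called too, at 2.08 to 2.70.

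COL1A1 and COL1A2 code for the chains of type I collagen, the main fibrillar collagen of connective tissue. COL1A1 had a lowest, median and highest signal of 12.95, 13.25 and 13.34 in fibroblast and of 11.42, 11.54 and 12.31 in testis. It was between 8.55 and 9.86 in pancreas and never over 6.62 in cortex, and the gap was 2.51 (SE 0.15). Here every fibroblast array lay above every testis array. COL1A2 followed the same order, with means of 13.81, 12.43 and, in pancreas, 10.74, and a gap of 1.69 (SE 0.06). A second, dim COL1A1 probeset was at 6.25 in fibroblast and 6.07 in testis and was not called, and the averaged gap was 1.02.

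All 3 measured chains of type VI collagen, which forms beaded microfilaments around cells, were called. Their gaps were 2.24 (SE 0.10) for COL6A1, 1.76 (SE 0.14) for COL6A2 and 0.94 (SE 0.07) for COL6A3, with 1.18 for COL6A1 when averaged. FBN1, the fibrillin of elastic microfibrils, had a gap of 2.11 (SE 0.07, averaged 1.303), and EMILIN1, a glycoprotein of elastic fibers, one of 2.05 (SE 0.11). LTBP1, which holds latent TGF-beta in the matrix, lay at 9.41 ± 0.21 (SD, n = 6 arrays) in fibroblast and 9.12 ± 0.18 in testis, 2.28 above thymus. The basement membrane laminins LAMA4, LAMB1 and LAMC1 had gaps of 1.01 (averaged 0.50), 0.99 and 0.70, and their linker NID1 one of 0.74 (SE 0.18). With all 30 arrays quantile normalized together LAMC1 (0.14) and NID1 (0.28) were no longer called.

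The 8 matrix genes not called included several that are high in cultured fibroblasts. FN1, fibronectin, was at 11.48 in fibroblast and 8.11 in testis, under the 9.27 of thymus. COL5A2, a type V collagen chain, was at 10.59 and 9.92, with thymus at 10.83. LUM, a relative of decorin, was at 12.06 and 9.29, with pancreas at 10.05. The type III collagen gene COL3A1 was at 8.13 in fibroblast, 7.54 in testis and 7.55 in pancreas on its probeset.

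Enzymes and chaperones of procollagen were also shared. Of 18 measured genes of collagen processing and crosslinking, 12 were above in both tissues (66.7%, against 5.83% of all genes) and 16 were higher over the 12 arrays (24.7% of all genes), with a median difference of 2.04. CRTAP, part of the complex that 3-hydroxylates collagen prolines, was at 10.05 ± 0.52 (SD, n = 6 arrays) in fibroblast and 10.18 ± 0.37 in testis, 2.07 above pancreas (averaged 0.73). SERPINH1, the collagen chaperone of the endoplasmic reticulum, had a gap of 1.85 (SE 0.07) and FKBP10, a prolyl isomerase, one of 1.53 (SE 0.11). P4HA2, a prolyl 4-hydroxylase subunit, was far apart inside the pair, at 12.19 in fibroblast and 8.33 in testis, yet still 1.45 above pancreas. CTSK, a collagen-degrading cathepsin, had a gap of 1.10 (SE 0.07). The crosslinking oxidases LOXL1 and LOX had gaps of 0.85 and 0.40. ADAMTS2, a procollagen protease, had a gap of 0.97, which became -0.09 when all probesets of a gene were averaged.

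Matrix turnover was represented by an enzyme and an inhibitor. MMP2, gelatinase A, had a lowest, median and highest signal of 12.08, 12.35 and 12.59 in fibroblast and of 10.59, 10.77 and 10.97 in testis. TIMP1, which inhibits such proteases, was at 11.93, 12.31 and 12.81 in fibroblast and at 10.86, 10.95 and 11.29 in testis. The nearest array of another tissue was at 8.84 for MMP2, in pancreas, and at 8.86 for TIMP1, in thymus. For both genes the fibroblast arrays lay above the testis arrays without overlap, and the gaps were 2.40 (SE 0.09) and 2.39 (SE 0.08). The dimmer probesets of these genes, 1 for MMP2 and 2 for TIMP1, were not called, and the averaged gaps were 1.03 and 0.72.

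**Figure D2:**
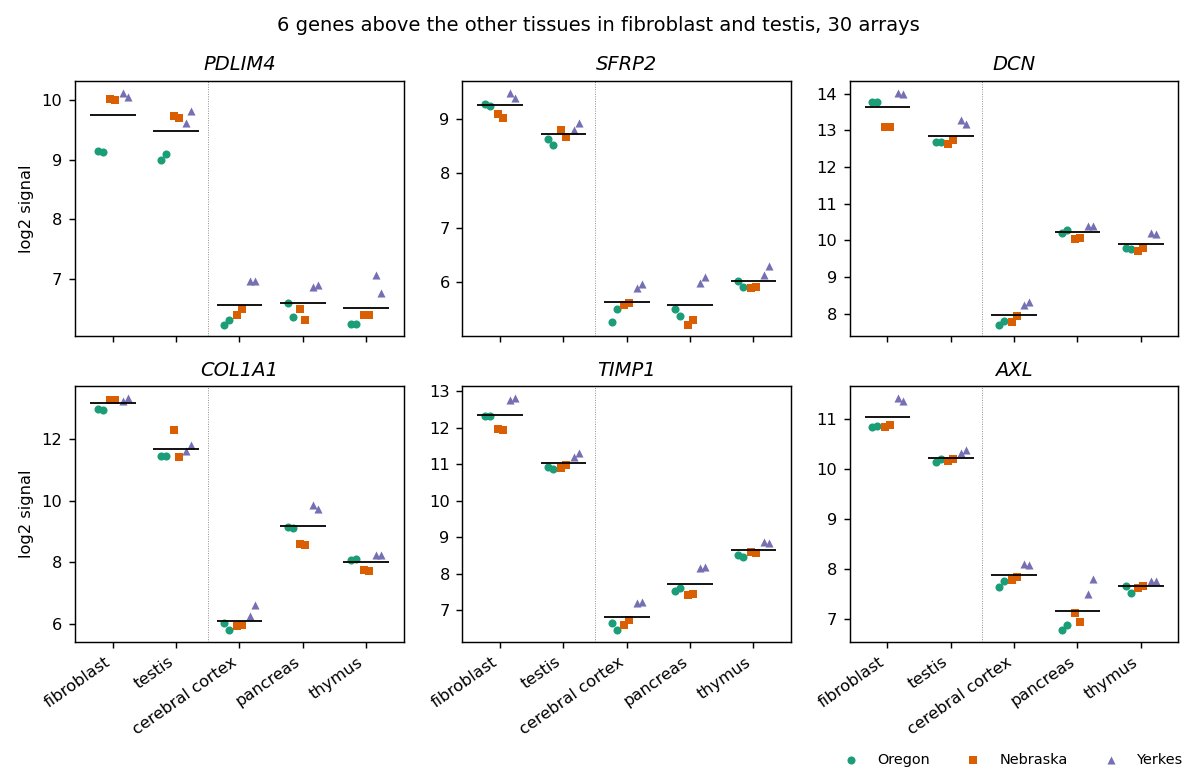
Log2 signal (y axis) of 6 genes on all 30 arrays by tissue (x axis) and center (marker), with tissue means as lines. In each panel the 12 arrays left of the dotted line lie above the 18 on the right, from at least 8.99 against at most 7.07 for PDLIM4 to at least 10.14 against at most 8.09 for AXL.

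Of 10 measured contractile and smooth muscle genes, 5 were called above (5.83% of all genes) and 9 were higher over the 12 arrays (24.7% of all genes), with a median difference of 2.02. MYL9, a regulatory light chain of myosin, had a lowest, median and highest signal of 10.88, 11.26 and 11.61 in fibroblast and of 10.29, 10.53 and 10.80 in testis, and pancreas ended at 8.50. CALD1, the actin-binding caldesmon, had a gap of 2.04 (SE 0.07), and all 5 of its other probesets were called. CNN1, calponin, reached 0.59, and TAGLN, an actin-binding protein of smooth muscle, 0.50. The tropomyosin TPM2 had a gap of 1.06, but none of its 6 other probesets was called and their average with it gave -0.84. MYH11, the smooth muscle myosin heavy chain, was not shared, at 6.19 in fibroblast and 11.42 in testis.

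Of 21 measured genes of the mesenchymal cytoskeleton, adhesion and cell surface, 8 were called above (38.1%, against 5.83% of all genes) and 18 were higher over the 12 arrays (24.7% of all genes). VIM, the intermediate filament of mesenchymal cells, was at 13.62 in fibroblast and 12.14 in testis, 1.39 (SE 0.08) above thymus. The focal adhesion protein ZYX had a gap of 1.55 (SE 0.15), the integrin subunit ITGB1 one of 1.28 (SE 0.20) and the actin crosslinker FLNA one of 1.04 (SE 0.12). Thymus was next for all of these. S100A6, a calcium-binding protein, had a gap of 0.51, which became -0.03 when all 30 arrays were quantile normalized together. CAV1, the caveolar coat protein, was not called, since testis at 8.02 lay under pancreas at 9.04.

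YAP and TAZ are coactivators that enter the nucleus of spread, mechanically loaded cells and act through TEAD factors. Of 12 measured genes of this set, 7 were called above (58.3%, against 5.83% of all genes). The coactivators themselves were among them, with gaps of 0.74 (SE 0.07) for YAP1 and 1.32 (SE 0.08, averaged 0.72) for WWTR1, which codes for TAZ. AXL, a receptor tyrosine kinase counted among their targets, had a lowest, median and highest signal of 10.84, 10.86 and 11.41 in fibroblast and of 10.14, 10.19 and 10.37 in testis, 2.36 (SE 0.08) above cortex. Its other 2 probesets gave -0.39 and -0.51, and the averaged gap was 0.73. The secreted targets CCN2 and CCN1 had gaps of 1.53 (averaged 0.42) and 0.83, and the angiomotin relatives AMOTL2 and AMOTL1 0.89 and 0.78. Averaging all probesets moved AMOTL1 to -0.01 and YAP1 to 0.08, neither of them called. The factor TEAD1 was at 6.56 in fibroblast, 6.69 in testis and 7.07 in pancreas and was not called.

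Of 20 measured genes of the inhibin, activin and insulin-like growth factor systems, 11 were called above (55%, against 5.83% of all genes), 7 of them by at least 1. Carriers of insulin-like growth factors made up 6 of the 11. IGFBP4 had a lowest, median and highest signal of 12.98, 13.27 and 13.49 in fibroblast and of 10.65, 10.79 and 11.40 in testis, and pancreas was at 7.89 to 9.03. The gap was 2.55 (SE 0.12), and the fibroblast arrays lay above the testis arrays without overlap. IGFBP3, IGFBP2 and IGFBP7 had gaps of 1.297, 1.17 and 1.12, IGFBP5 one of 0.53 and IGFBP6 one of 0.21. The receptors IGF1R and IGF2R had gaps of 0.75 and 0.41.

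Ligands of these systems were mostly not shared, and the follistatin genes were called in part. INHBA, the activin A subunit, was called, at 7.83 in fibroblast and 8.13 in testis (gap 1.22, SE 0.10). So were FSTL1 and FSTL3, follistatin relatives, with gaps of 1.62 (averaged 0.90) and 1.35. INHA, the inhibin subunit of Sertoli cells, was at 6.58 in fibroblast and 11.15 in testis. IGF1 and IGF2 were at 7.44 and 7.07 in fibroblast and at 10.44 and 9.73 in testis, and FST, follistatin, was at 10.47 in fibroblast and 6.65 in testis.

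Of 20 measured mesenchymal and gonadal transcription factors, 4 were called above (20%, against 5.83% of all genes), and 11 were higher over the 12 arrays (24.7% of all genes). Of the 4, PRRX1, a homeobox factor of limb and connective tissue mesenchyme, had the largest gap (1.36, SE 0.08, averaged 0.79). TBX3 followed at 0.56 (SE 0.08). The gonadal factors WT1 and GATA4 were at 9.22 and 9.35 in testis and at 6.07 and 6.87 in fibroblast. None of 26 measured HOX genes, which record position along the body axis, was called. Over the 12 arrays 1 was higher and 6 were lower, against 24.7% and 19.7% of all genes. BNC2, a zinc finger protein of mesenchymal cells, was not on the list and stood at 8.74 ± 0.30 (SD, n = 6 arrays) in fibroblast and 8.78 ± 0.41 in testis, 2.38 above thymus (averaged 1.35).

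The remaining genes with large gaps had varied functions. FAT1, a giant protocadherin, PRKD1, a diacylglycerol-responsive kinase, WFDC1, a secreted protein with a protease inhibitor fold, and PTGFRN, an immunoglobulin-domain membrane protein, were each higher in testis by their means. Their gaps were 2.24, 2.46, 2.22 and 2.01. The other probeset of FAT1 gave -1.08 and that of WFDC1 -0.40, and their averaged gaps were 0.66 and 0.95. NINJ1, a membrane protein of cell adhesion and membrane rupture, was at 10.26 and 10.08 with a gap of 2.37, but its other 2 probesets gave -0.21 and -0.28 and the average 0.65. NLGN4X, a neuroligin, had a gap of 2.68, but its other 2 probesets gave -0.33 and -1.83, and the average of its probesets gave 0.29. The probeset called was at 10.32 to 13.4 in every tissue and the others averaged 6.18 and 5.74, and whether it measures this gene was not tested. MEI1, a gene of meiotic recombination, had a gap of 2.01 on its brightest probeset and 0.07, not called, on the average, since its other 3 probesets gave -0.39 to -1.10. SGCE, a sarcoglycan from an imprinted locus, was at 9.10 in fibroblast and 9.19 in testis, with a gap of 1.70 (SE 0.10).

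**Figure D3:**
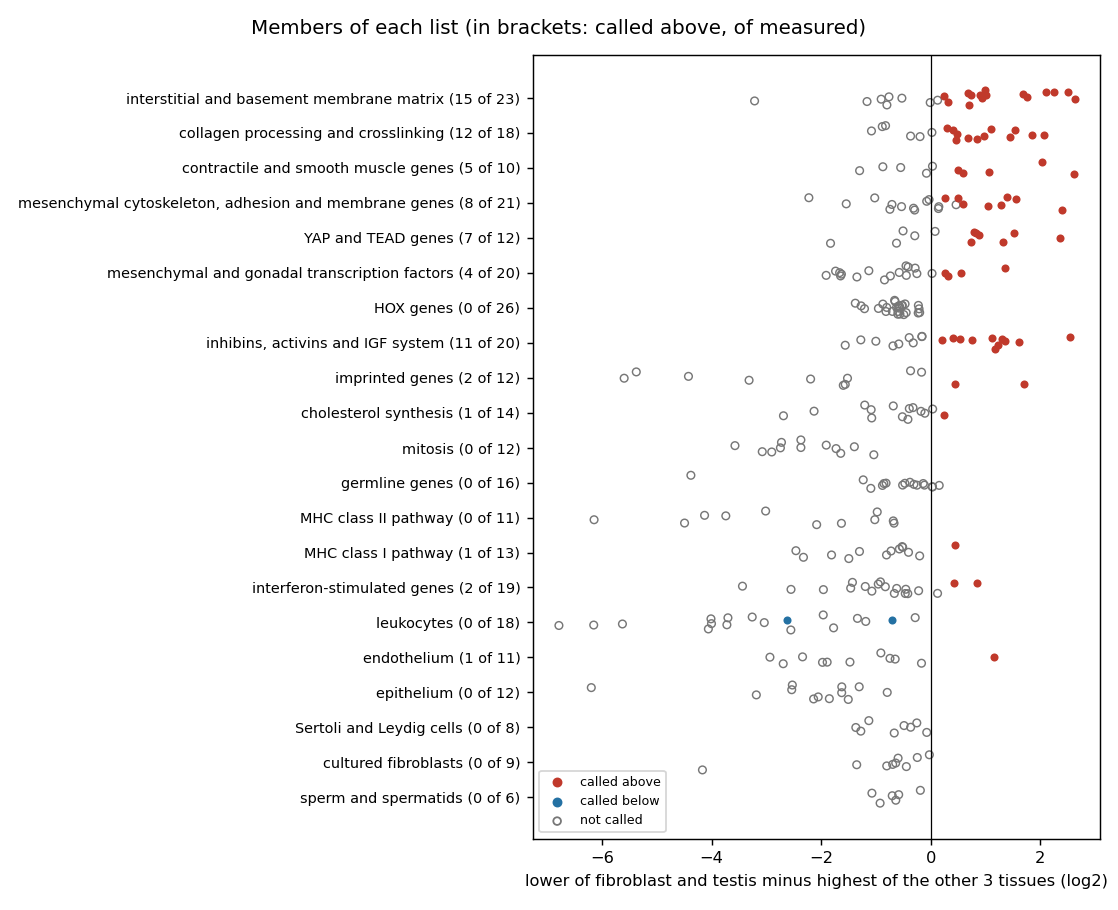
Gap of each list member (x axis, lower of fibroblast and testis minus the highest other tissue, log2) by list (y axis), red where called above, blue where called below and open otherwise. The lists of matrix, collagen processing, contractile, YAP and insulin-like growth factor genes have 15, 12, 5, 7 and 11 red points, and the HOX, mitosis, germline and class II lists have none.

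The counts of the remaining lists were small and are set against 5.83% of all genes. Of 12 imprinted genes 2 were called (16.7%), SGCE and PLAGL1 (0.44), and H19 was at 12.91 in testis and 6.42 in fibroblast. Of 14 cholesterol synthesis genes 1 was called (7.14%), HSD17B7 (0.24, averaged 0.02 and not called). None of 12 mitosis genes was called, as thymus held higher values such as 11.49 for TOP2A against 9.69 in fibroblast and 8.41 in testis. None of 16 germline genes was called. Of 19 interferon-stimulated genes, IFI44 (0.84, SE 0.06) and IFIT3 (0.42) were called (10.5%), the latter turning to -0.30 after quantile normalization of all 30 arrays. Of 13 genes of the class I pathway 1 was called (7.69%), PDIA3 (0.45, averaged 0.19 and not called), and of 11 of the class II pathway none was.

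Genes below the other tissues were fewer and their gaps smaller. The 25 largest with a named symbol ran from 0.66 (SE 0.08) for CRABP1, a retinoic acid carrier, to 1.31 (SE 0.08) for BCAT1, a fold of 1.58 to 2.47, with limma adjusted p from 1.51e-16 to 2.10e-06. The nearest higher tissue was pancreas for 12, cortex for 7 and thymus for 6, and the genes included enzymes, transporters, glycosyltransferases and proteins of cyclic AMP signaling. Each had its 4 arrays of the pair below the other 6 at every center, which held for 148 of all genes (1.05%), and for 19 of the 25 it held over all 30 arrays together. Of the 25 genes, 15 had more than 1 probeset, and for 7 of them the averaged gap was smaller by more than 1.5 times.

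BCAT1, the cytosolic branched-chain amino acid transaminase, had a lowest, median and highest signal of 5.997, 6.15 and 6.63 in fibroblast and of 6.24, 6.55 and 6.70 in testis. Cortex lay at 7.74 to 8.04, thymus at 8.56 to 8.98 and pancreas at 9.80 to 10.09. The pair overlapped and lay wholly under the others, and all 3 of the other BCAT1 probesets were called below, by 0.40 to 1.15. GLUL, glutamine synthetase, was at 9.53 ± 0.33 (SD, n = 6 arrays) in fibroblast and 9.88 ± 0.20 in testis against 10.59 ± 0.23 in thymus, the lowest of the others, and 12.12 ± 0.37 in cortex (gap 0.71, averaged 0.41). ALDH1L1, a folate enzyme that also marks astrocytes, was at 5.94 and 6.71 in the pair and at 7.52 in cortex, under the 8.10 of pancreas and of thymus.

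Transporters were a second group. Of 45 measured carriers of the SLC1, SLC6, SLC7, SLC15 and SLC38 families, 4 were called below (8.89%, against 1.71% of all genes). None was above, and the families were picked after values were seen. ABCD2, a peroxisomal carrier of very long-chain fatty acids, had a lowest, median and highest signal of 7.10, 7.35 and 7.84 in fibroblast and of 7.32, 7.57 and 8.03 in testis, and pancreas began at 8.49. The arrays of the pair overlapped each other and not the others. The gap was 1.19 (SE 0.07). SLC15A2, a proton-coupled peptide transporter, was at 6.004, 6.28 and 7.09 in fibroblast and at 5.80, 5.89 and 6.66 in testis, 1.10 (SE 0.08) under pancreas, and its other probeset gave 1.14. The neutral amino acid transporter SLC1A4 had a gap of 0.72, and all 3 of its other probesets were called. SLC22A23, an orphan carrier, had a gap of 1.06, but its other 2 probesets gave -0.03 and -0.04 and the average 0.33.

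Cyclic AMP signaling was represented by 3 genes. Of 9 measured protein kinase A subunits and inhibitors, 2 were called below (22.2%, against 1.71% of all genes) and 7 were not called. Over the 12 arrays 2 were higher and 2 lower (24.7% and 19.7% of all genes). This family was picked after values were seen. PRKACB, a catalytic subunit of protein kinase A, had a lowest, median and highest signal of 8.77, 8.92 and 9.24 in fibroblast and of 8.75, 8.87 and 9.06 in testis, with pancreas at 9.91 to 10.01 and cortex at 11.95 to 12.41. The gap was 0.98 (SE 0.06, averaged 0.51). PKIB, an inhibitor of this kinase, was at 4.51 ± 0.30 and 4.48 ± 0.29 (SD, n = 6 arrays each) in the pair and at 5.58 in thymus, 6.21 in cortex and 9.94 in pancreas (gap 1.07, averaged 0.59). PPP1R1B, which codes for the phosphatase inhibitor DARPP-32, had a gap of 1.07 (SE 0.10).

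Golgi enzymes that build sugar chains supplied 4 of the 25. Of 63 measured Golgi glycosyltransferases, 6 were called below (9.52%, against 1.71% of all genes) and 5 above (7.94%, against 5.83%). The family was picked after values were seen. GALNT15 starts mucin-type chains and had a gap of 1.07 (SE 0.08). MGAT4A branches N-linked chains, and its means were 5.55 in fibroblast, 6.60 in testis and 7.58 in cortex (gap 0.97, averaged 0.62). GCNT4 branches mucin-type chains and ST3GAL6 adds sialic acid, with gaps of 0.94 (SE 0.14) and 0.84 (SE 0.07). The pair was under the median probeset of the array in 103 of the 241 genes.

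**Figure D4:**
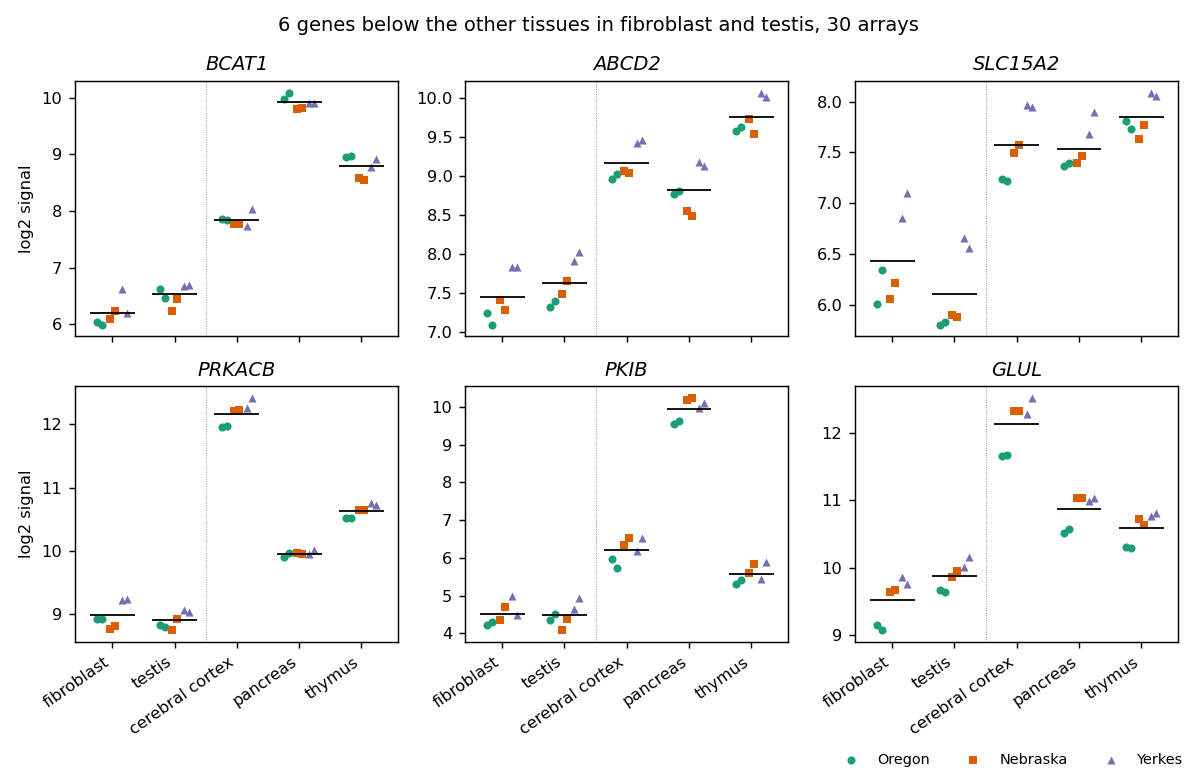
Log2 signal (y axis) of 6 genes on all 30 arrays by tissue (x axis) and center (marker), with tissue means as lines. In each panel the 12 arrays left of the dotted line lie below the 18 on the right, from at most 6.70 against at least 7.74 for BCAT1 to at most 10.16 against at least 10.30 for GLUL.

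The other named genes below included receptors, peptides and a transcription factor. SPX, the peptide spexin, was at 4.67 in fibroblast, 4.81 in testis and 9.28 in pancreas. S100A1, a calcium-binding protein of muscle and nerve, had a gap of 0.93, and CNIH2, an auxiliary protein of AMPA receptors, one of 0.66. TNFRSF21, a death receptor, was at 5.88, 6.60 and, in thymus, 7.27. BCL11A, a factor of lymphoid and neural cells, was at 6.13 and 6.37 against 7.07 in pancreas and 9.15 in thymus. CA10, a carbonic anhydrase relative without enzyme activity, had a gap of 0.80, and 0.00 when its 3 probesets were averaged.

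Markers of blood cells, thymocytes and vessels were set beside these results. Over 18 leukocyte genes the mean log2 signal was 6.21 to 6.91 on fibroblast arrays and 7.12 to 7.72 on testis arrays, the latter overlapping cortex (6.89 to 7.58) and pancreas (7.08 to 7.69) and under thymus (8.80 to 9.39). Over 8 thymocyte genes it was 6.995 to 7.57 on testis arrays, above fibroblast, cortex and pancreas (at most 6.62) and under thymus (11.25 to 11.74). Among these genes CD1B was at 8.09 in testis and 6.19 in pancreas, while PTCRA was at 6.76 and 7.14. The source of the thymocyte gene signal in testis was not tested. Of the leukocyte genes, 2 were called below (1.71% of all genes were), AIF1 (0.23) and CD53 (0.15), as were CD79B (0.34) of 6 B cell genes and HBA (0.47) and HBB (0.20) of 4 red cell genes. Under the other settings tried, CD53 lost its call in 13 of 45 and HBB in 21 of 44, and AIF1 and CD79B in 5 each. Of 11 endothelial genes 1 was called above (9.09%, against 5.83% of all genes), ENG (1.15, SE 0.14, averaged 0.31), a TGF-beta coreceptor that mesenchymal cells also carry, and the endothelial list mean was highest in pancreas. The pair also differed in the difference between 3' and 5' control probesets of GAPDH, at 1.76 ± 0.58 (SD, n = 6 arrays) in fibroblast, 0.69 ± 0.27 in testis and 1.51 ± 0.52 in pancreas. The part of these differences in the calls was not tested.

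Averaging the pair gave longer lists than asking for the order in both. Between the 12 and the 18 arrays, 3490 genes were higher (24.7%) and 2784 lower (19.7%) at a limma adjusted p under 0.05, and the order held for 824 (23.6%) of the first and 241 (8.66%) of the second. These counts rest on taking aliquots as independent, and with tissue as a random block they were 494 and 66. The genes called above were limited by testis in 568 cases and by fibroblast in 256, and for 636 of the 824 the pair lay within 1 of each other. Pancreas was the next tissue for 328, thymus for 286 and cortex for 210, and at a gap of at least 1 for 82, 29 and 26 of 137. Without the 6 pancreas arrays 1301 genes were above and 539 below the other 2 tissues.

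The order at each center came from the same arrays as the calls and is given as a description. It held by the means of all 3 centers for 764 of the 824 genes above (92.7%) and 227 of the 241 below (94.2%), where 874 of all genes (6.18%) and 350 (2.48%) had it, and for all 137 and 8 with a gap of at least 1. Other probesets of the same genes, which the choice did not use, gave a further count. Of 847 other probesets of the genes above, 244 were called above (28.8%), where 421 of all 10836 such probesets were (3.89%). Of 177 other probesets of the genes below, 53 were called below (29.9%), against 197 of 10836 (1.82%). A gene's probesets share RNA and arrays.

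Each of the 10 possible pairs of tissues was run the same way, over the same 30 arrays, so their counts are not independent. Fibroblast and testis ranked 4th by genes above (824, range 295 to 1135) and 2nd by genes above by at least 1 (137, after 139 for cortex and testis). By genes below they ranked last of the 10 (241, where the others had 424 to 1727). The Spearman coefficient between fibroblast and testis arrays averaged 0.839 (0.817 to 0.852 over 36 array pairs), after 0.854 for testis and thymus. Differences between pairs were not tested.

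**Figure D5:**
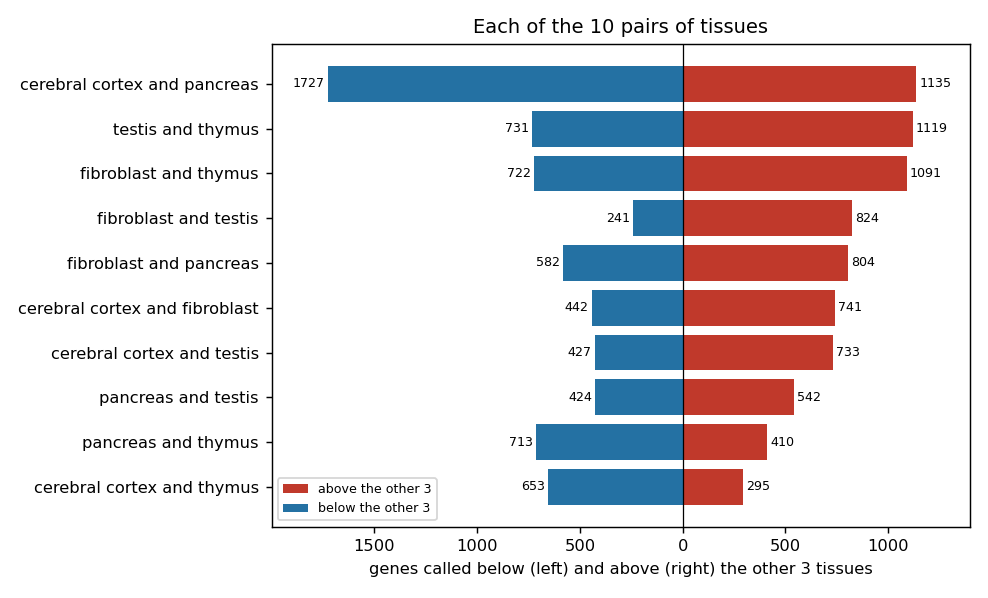
Number of genes called below (left bars) and above (right bars) the other 3 tissues (x axis) for each pair of tissues (y axis). Fibroblast and testis have 824 genes above and 241 below, the fewest below of the 10 pairs.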

How the data were processed

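The authors corrected background with the MAS 5.0 procedure, quantile normalized the arrays of each center separately and summarized all 30 arrays by RMA, and the deposited values are log2 signals of 52865 probesets. Separate normalization leaves differences between centers. The center term removes only a constant shift of each probeset, and quantile normalization of all 30 arrays was an alternative. No depth applies to arrays, and their number limits the precision. The platform annotation, which can be old, gave 1 symbol to 24969 probesets, several to 361 and none to 27535. Each of 14133 genes was represented by its probeset of highest mean signal. Probe coordinates and sequences were not used here.

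Samples were grouped by their titles. In R 4.3.3, limma 3.58.1 was fitted to all probesets with 5 tissue means and center, and p-values were adjusted by Benjamini-Hochberg over all probesets. The adjusted p of a gene is the largest of its 6 contrasts, and the standard error that of the gap. A second fit compared 12 with 18 arrays, with center. The script was tested on simulated data. Members and lists were chosen with earlier results of these data known. Named are the 25 largest called gaps in each direction without LOC symbols (42 genes above and 13 below carried one), and called list members with a gap of at least 0.5, or the 2 largest in lists with fewer than 3 calls. Examples that were not called, and gene families, were picked after their values were seen. Alternatives covered normalization, the center term, dim probesets, probeset averaging, centers, single arrays, blocks, adjustment and the moderation of variances. Figures were drawn with matplotlib 3.10.9.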

Additional observations from a re-analysis of the deposited data

Results flagged for a closer look

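In 3 of 204 groups of 6 arrays (102 named genes in both tissues of the pair), 1 array stood apart by Dixon's ratio. The usual rate of about 1 in 20 is for independent values and does not apply here. The arrays were aliquots labeled at different centers, and center was not removed before taking the ratio. All 3 were fibroblast arrays from Yerkes, the center with the highest mean signal, for genes below the other tissues. For BCAT1 the ratio was 0.6254, with 1 array at 6.63 and the others at 5.997 to 6.23. For GALNT15 it was 0.827, with the same array at 5.76 and the others at 4.95 to 5.09. For PPP1R1B it was 0.657, with the other Yerkes array at 6.34 and the others at 5.30 to 5.66. Each remained below every array of cortex, pancreas and thymus.

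For 2 of the 102 named genes the difference between the 12 and the 18 arrays varied between centers by more than 0.5, by a limma test against that size (20 of all genes, 0.142%). For this test the adjusted p was the smallest of 3 comparisons between centers, with no adjustment for taking the smallest. Tested against no difference, 2677 of all genes (18.9%) varied between centers at an adjusted p under 0.05, among them 244 of the 824 called above (29.6%) and 45 of the 241 called below (18.7%). The ITGB1 difference ran from 1.92 at Nebraska over 2.61 at Yerkes to 3.16 at Oregon, a span of 1.24 (limma adjusted p = 0.000321). For NID1 the values were 1.26, 1.48 and 2.10, a span of 0.847 (limma adjusted p = 0.0140). Both genes were higher in the pair at all 3 centers.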

How the results depend on the processing

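The counts of genes above (824) and below (241) were 609 and 234 when all 30 arrays were quantile normalized together (562 and 165 shared), and 795 to 836 and 216 to 260 when 1 array was left out. With 1 array left out, counts at a gap of at least 1 (137 and 8) were 135 to 144 and 7 to 9. The 12 against 18 counts (3490 higher, 2784 lower) were then 3222 to 3651 and 2307 to 3075. Joint quantile normalization of all 30 arrays gave 103 above and 7 below by at least 1, and 2689 higher and 2073 lower. Without a center term 426 genes were above, 50 below and 902 lower over the 12 arrays. With Holm adjustment these were 393, 52 and 124, with 708 higher. Without pancreas 1301 were above (266 by at least 1) and 539 below (71 by at least 1). There fewer tissues were compared and the pancreas arrays were gone, and the part of each was not tested. With fewer arrays, the 12 against 18 counts were 1357 lower without Oregon, 2235 higher and 1347 lower without Nebraska, and 1995 and 767 without Yerkes, where 159 genes were below. Oregon alone gave 340 and 43, Nebraska alone 488 and 48 with 109 genes below, and Yerkes alone 458 and 59 with 159 below, 2 by at least 1. The 12 against 18 counts were also 1981 and 597 with the 2 aliquots as a random block, 494 and 66 with tissue as a random block, and 6193 and 5617 in the 5 tissue model, and 1585 were lower among probesets above the median signal. Averaged probesets gave 731 genes above and 292 below, with 95 above and 4 below by at least 1. The gap changed sign for S100A6 (-0.0316) and IFIT3 (-0.30) after quantile normalization of all arrays, and for ADAMTS2 (-0.0908), TPM2 (-0.84) and AMOTL1 (-0.0085) with averaged probesets. The cause was not tested beyond these constructions.

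Correlations taken to look for pairing by aliquot number had medians of -0.0061 at Oregon, 0.039 at Nebraska and 0.0006 at Yerkes. At Yerkes they ran from -0.30 to 0.35 with 3 of 10 over 0.1, and none was over 0.1 elsewhere. Pairing at Yerkes was not tested further. With the replicate block, 809 genes were above and 232 below, 137 and 8 by at least 1, and 3195 were higher and 2341 lower over the 12 arrays. Signals near the median probeset may compress differences, which was not tested, and 1 RNA per tissue leaves animals unsampled.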

Other observations

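Gene families, chosen by symbol after values were seen, were counted the same way, and are set against the 5.83% of all genes called above and 1.71% called below. Of 9 laminin chains 5 were called above (55.6%), led by LAMB2 (gap 1.45, SE 0.09), and LAMA3, an epithelial chain, was below (0.19). Of 24 integrin symbols 4 were above (16.7%), among them ITGB5 (1.61, SE 0.07) and ITGA3 (0.69), and ITGB4 and ITGB7, of epithelium and lymphocytes, were below (0.30 and 0.18). Of 35 collagen chains 10 were above (28.6%), including COL7A1, the anchoring fibril collagen (1.17, SE 0.07). Of 5 TAM receptors and ligands 3 were above (60%), AXL and both ligands, GAS6 (1.64, SE 0.08) and PROS1 (1.56, SE 0.07). Of 9 frizzled receptors 2 were above (22.2%), FZD7 (1.55, SE 0.06) and FZD6 (0.66).

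None of 34 cytosolic ribosomal and none of 25 proteasome symbols was called in either direction, and 3 of 61 mitochondrial ribosomal symbols were above (4.92%), of which MRPL47 reached 1.61 (SE 0.08). Of 73 potassium channel symbols none was above, 4 were below (5.48%) and 44 were lower over the 12 arrays, against 19.7% of all genes. KCNJ10, an inward rectifier of glia, was at 5.06 in fibroblast, 5.03 in testis, 5.57 in pancreas and 8.80 in cortex. Of 63 Golgi glycosyltransferases 5 were above (7.94%) and 6 below (9.52%), the former including MGAT4B (0.82, SE 0.09) and B4GALT4 (0.81, SE 0.08).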
